A study of Mus musculus with 18 samples.

Results

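Gene expression in islets of 6-week-old C57BL/KsJ db/db mice was compared with that in islets of lean C57BL/KsJ control mice of the same age. The comparison rests on 4 of the 18 arrays of the series, 2 per group, chosen by strain and age as given in the sample descriptions. It was read across all genes that have a transcript cluster of their own on the array, 22180 in number, of which 15526 were bright enough to be tested. The study measured islets of db/db mice and of C57BL/6J ob/ob mice, each beside age-matched lean mice of the same background, at 6 and 16 weeks. Islets were hand-picked after isolation, and total RNA was labelled for Affymetrix arrays. Mice came from an institute's own colonies and ate freely. The labels name no treatment, no sex and no genotype at the db locus for the lean mice, and do not say whether an array held RNA of 1 animal or of a pool. The p-values thus cover the spread among these samples alone, which may in part be technical.

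The db allele disrupts the leptin receptor gene Lepr, so that the long receptor form, which signals through JAK2 and STAT3, is not made. Animals without leptin signalling overeat, become obese and resist insulin, and their beta cells respond by secreting more insulin and by growing in number. On the KsJ background this compensation fails with age and the mice become diabetic, whereas obese mice on the 6J background largely keep it. At 6 weeks db/db mice are as a rule obese and hyperinsulinaemic but not yet overtly diabetic, a stage at which beta cells make and fold far more proinsulin than usual. The labels give no glucose or insulin values, so the stage of these animals was not tested.

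The values were log2 signals, and a change is the db/db mean minus the lean mean on that scale, given with its standard error (SE; n = 2 arrays per group). Changes were tested with limma in 1 fit over all 16 arrays of the larger table, and a gene was called when its p, adjusted over all 15526 genes by the Benjamini-Hochberg method, was below 0.05. Genes whose mean over all 16 arrays lay under 2.99, the 30th percentile, were left out as too dim. The db/db arrays enter that mean, so a gene dim in lean islets can pass through groups where it is high. The 2 arrays of a group correlated across genes at 0.989 in lean and 0.984 in db/db islets. The islet hormone genes were near the top of the range on all 4 arrays, with Gcg between 13.25 and 13.31, Sst between 13.32 and 13.44 and Ins2 between 11.96 and 12.14.

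Some marker genes set single arrays apart. Lean replicate 1 was the only one of the 4 with a high level of the Y-linked gene Uty (7.65, against 2.18 on lean replicate 2 and 3.60 and 3.33 in db/db) and with a low level of Xist, the RNA of the inactive X chromosome (2.63, against 9.40, 8.74 and 8.46). Digestive enzyme genes of exocrine acinar cells averaged 10.002 and 8.47 on the lean arrays and 7.80 and 9.39 on the db/db arrays, so the groups overlapped. Lymphocyte genes averaged 3.71, 5.15, 5.57 and 4.19 in the same order, with the T-cell gene Cd3e at 3.79, 5.80, 7.31 and 3.30. Enterocyte genes averaged 3.94 and 4.03 in lean and 4.89 and 4.26 in db/db islets, with sucrase-isomaltase, Sis, at 2.55, 2.67, 3.47 and 2.79, near the cutoff for dim genes. The part of these differences in the results below was not tested beyond the values given. In such bulk samples a lower level may mean fewer cells of a type or less RNA per cell, which cannot be told apart.

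The leptin receptor cluster lay near the cutoff in every sample. Lepr stood at 3.14 and 2.87 in lean and 3.10 and 2.66 in db/db islets, a change of -0.13 ± 0.40 (adjusted p = 0.962, limma). The groups overlapped, and the sign turned in several alternative settings. The db mutation alters how the long form is spliced, and the cluster sums probes over the gene, so its level does not check the genotype. Mice that carry db can also differ from their controls in the DNA beside the gene. Of the 40 genes tested nearest to Lepr, 20 on each side, 0 were called and 2 had an unadjusted p below 0.05. Both db/db arrays lay above both lean arrays in 6 of them (15%) and below in 11 (27.5%), against 21.9% and 27.9% of all genes tested, and their median change was -0.09. Of these 2, Patj, a cell polarity scaffold, stood at 7.76 and 7.62 in lean and 7.17 and 7.15 in db/db islets (-0.53 ± 0.19). The other, Atg4c, went the opposite way, at 7.65 and 7.58 against 8.21 and 8.03 (0.51 ± 0.16). Leprot, which shares its promoter region with Lepr, stood at 8.61 and 8.51 in lean and 8.82 and 8.78 in db/db islets.

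A total of 4 genes were called, 0.0258% of those tested, and all 4 were higher in db/db islets. No gene was called lower in this fit, while 605 genes (3.90%) were higher and 718 (4.62%) lower at an unadjusted p below 0.05, 8.52% together. Kcnk9 encodes TASK-3, a two-pore potassium channel that passes background current and closes in acid. Its signal was 2.86 and 3.33 in lean islets and 6.74 and 6.69 in db/db islets. It rose by 3.62 ± 0.32 on the log2 scale (adjusted p = 0.00291, limma). Lean replicate 1 was below the cutoff for dim genes and lean replicate 2 near it, and all arrays of 16-week lean KsJ, 6-week lean 6J and 6-week ob/ob islets were below it, so no fold is given. The mean by which Kcnk9 passed the filter includes the db/db arrays where it was high. With no filter on dim genes it was called as well.

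Meltf encodes melanotransferrin, an iron-binding protein anchored in the cell membrane. Its signal was 4.81 and 4.64 in lean and 7.62 and 7.47 in db/db islets, a rise of 2.82 ± 0.32 (adjusted p = 0.0132, limma). Star encodes the protein that moves cholesterol into mitochondria, the step that limits steroid synthesis. It stood at 3.40 and 3.39 in lean and 4.71 and 4.88 in db/db islets and rose by 1.40 ± 0.19 (adjusted p = 0.0416). The predicted gene Gm5105, of no known function, stood at 4.11 and 3.88 against 5.48 and 5.80 and rose by 1.64 ± 0.19 (adjusted p = 0.0132). For each of the 4 genes the gap between the groups was several times the gap between the arrays of a group. Over the alternative settings in which each was tested, Kcnk9 was called in 15 of 17, Meltf in 11 of 18, Gm5105 in 7 of 17 and Star in 4 of 17. Without db/db replicate 2 none of the 4 was called.

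**Figure D1:**
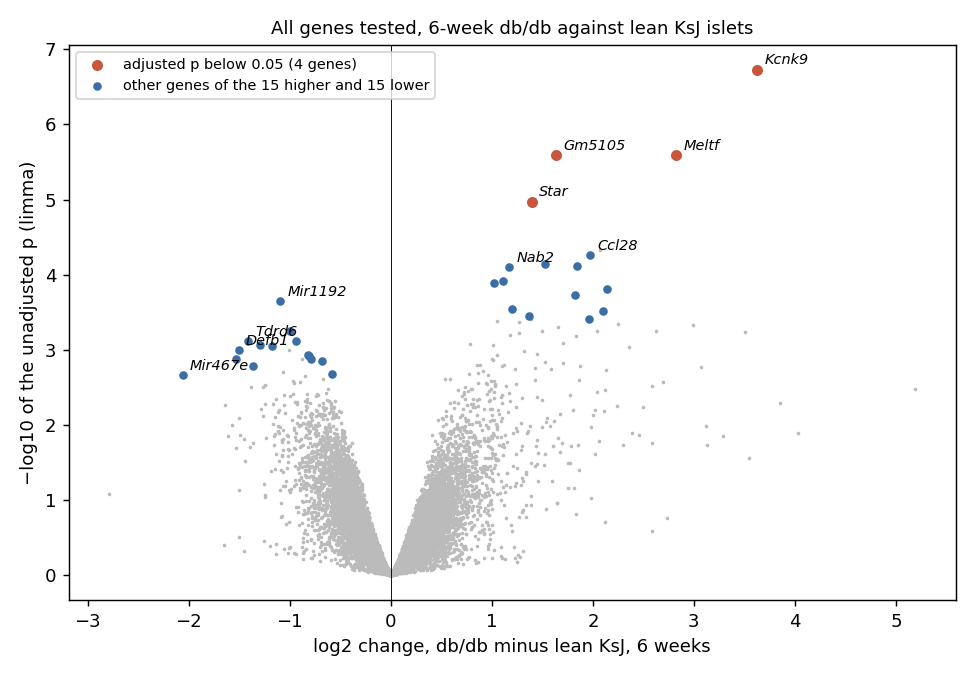
Log2 change of db/db against lean KsJ islets at 6 weeks (horizontal) against -log10 of the unadjusted limma p (vertical) for the 15526 genes tested. The 4 called genes, Kcnk9, Meltf, Gm5105 and Star, are marked in red on the right, and the other genes of the 15 higher and 15 lower are in blue.

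Below these, genes were taken by the smallest p among those whose db/db arrays both lay beyond both lean arrays, 15 in each direction, leaving out predicted genes. The 15 higher genes, Kcnk9, Meltf and Star among them, had changes between 1.02 and 3.62 with a median of 1.82 and adjusted p-values up to 0.309, so 12 of them were not called. Ccl28, a chemokine of mucosal epithelia, stood at 4.39 and 5.13 in lean and 6.61 and 6.84 in db/db islets (1.97 ± 0.31, adjusted p = 0.137, limma). Mfge8, a secreted bridge between dying cells and phagocytes, stood at 7.86 and 8.47 against 9.40 and 9.67 (1.37 ± 0.27). Nab2, a corepressor induced by and acting on EGR factors, stood at 7.75 and 7.44 against 8.59 and 8.95 (1.17 ± 0.19).

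Several of the others act in signalling or transport. Shisa2, which holds back Wnt and FGF receptors in the endoplasmic reticulum, stood at 6.41 and 5.87 in lean and 8.11 and 7.85 in db/db islets. The kinase gene Map3k19 stood at 4.24 and 4.14 against 6.16 and 6.51, and the metal-binding protein gene Mt3 at 4.93 and 4.54 against 6.40 and 7.27. The sialyltransferase gene St8sia5, which acts on gangliosides, stood at 8.0 and 8.38 against 9.11 and 9.49. The organic anion carrier gene Slco1a5 stood at 4.5 and 4.51 against 6.05 and 6.60, and has close paralogs whose transcripts its probes may share. Trnp1, Svopl, Fggy and Ankrd36 complete the 15, with changes of 1.53, 1.97, 1.20 and 1.02, and Ankrd36 was below the cutoff in lean islets, at 2.82 and 2.90.

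The 15 lower genes had smaller changes, between -2.06 and -0.58 with a median of -1.09, and their adjusted p-values ran from 0.252 to 0.468. Among them were the microRNA genes Mir1192, Mir380, Mir709 and Mir467e. Defb1, an epithelial defensin, stood at 7.68 and 7.74 in lean and 6.53 and 5.89 in db/db islets (-1.50 ± 0.34, adjusted p = 0.373, limma). Tdrd6, best known as a tudor protein of germ cells, stood at 5.29 and 4.78 against 4.01 and 3.25 (-1.41 ± 0.31). Ugt8a, which makes galactosylceramide, stood at 6.26 and 6.06 against 4.29 and 4.95. Mthfd1, an enzyme of folate-dependent one-carbon metabolism, stood at 9.21 and 9.03 against 8.41 and 8.19, and the lipid droplet protein gene Ldah at 8.39 and 8.32 against 7.81 and 7.73. Minar1, Csprs, Lingo3, Atad2b, Ralgapb and Dip2a complete the list, with changes of -1.0, -0.94, -1.18, -0.81, -0.79 and -0.68. Csprs belongs to a repeated gene family whose copies the probes may not separate.

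The array reads microRNA clusters from total RNA and does not separate the mature form from its precursor. The mature sequences are shown for the genes that RefSeq (GRCm38.p6) holds by name, since they identify which of the low-signal clusters were lower. The seed, bases 2 to 8, is in capitals.
mmu-miR-1192: aAACAAACaaacagaccaaauu
mmu-miR-380-5p: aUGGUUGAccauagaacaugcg
mmu-miR-380-3p: uAUGUAGUaugguccacaucuu
The 3 seeds differ from one another. Mir1192 (chr19:23149450-23149471 for the mature form) stood at 4.79 and 4.94 in lean and 3.78 and 3.77 in db/db islets. Mir380, in the imprinted microRNA cluster between Dlk1 and Dio3 (chr12:109711806-109711827 for the 5p form), stood at 4.55 and 4.36 against 3.04 and 3.29. Mir467e, of a family of near-identical copies, stood at 5.87 and 5.74 against 3.41 and 4.08, and Mir709 at 3.84 and 4.34 against 2.73 and 2.74. In db/db islets Mir709 lay below the cutoff for dim genes and Mir380 near it, while Mir1192 and Mir467e lay above it at a low level. As a class, microRNA genes had shares close to those of all genes on the lower side. Of 160 tested, 0 were called, 44 (27.5%) were lower on both db/db arrays and 24 (15%) higher, with a median change of -0.04, against 27.9%, 21.9% and -0.02 over all genes tested.

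**Figure D2:**
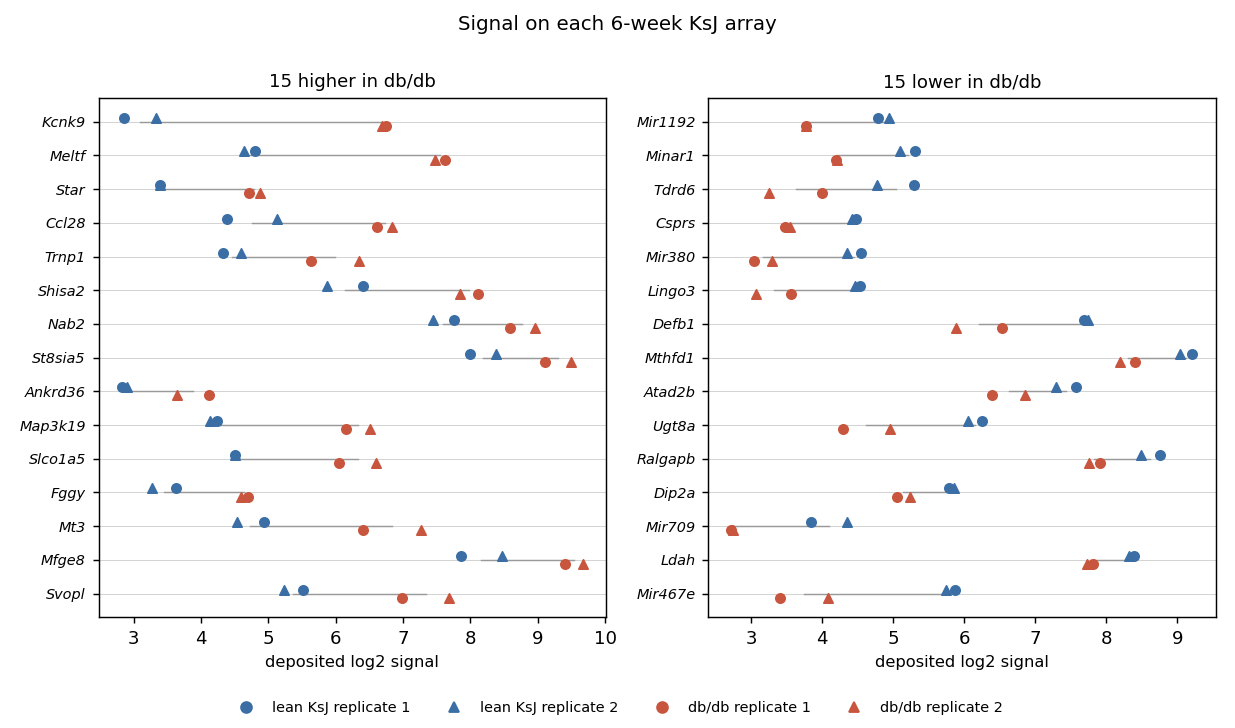
Deposited log2 signal (horizontal) of the 15 higher and 15 lower genes on each of the 4 arrays, with lean KsJ in blue, db/db in red, a circle for replicate 1 and a triangle for replicate 2. Grey lines join the group means. Kcnk9 moves from about the bottom of the scale in lean islets (2.86 and 3.33) to 6.74 and 6.69, whereas Ldah moves by only -0.58.

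How many genes passed depended on the arrays that set the shared variance. Outside the compared groups 3 arrays had been found in an earlier look at these data to differ from their partner or profile, namely lean KsJ 16-week replicate 2, lean 6J 6-week replicate 2 and ob/ob 6-week replicate 1. Without them the 6-week changes are the same but their SEs are not, and 125 genes were called (0.805%), 95 higher and 30 lower. Of the 15 higher genes 14 were then called, and of the 15 lower genes 5. Since these arrays were left out with results known, the counts describe how the variance enters and are no second test. Of the 6-week ob/ob pair, the array left out, replicate 1, was the one nearer to 16-week ob/ob islets. Replication genes averaged 6.45 on it, 5.49 on replicate 2, and 5.97 and 6.12 at 16 weeks. Unfolded protein response genes averaged 10.19, 9.78, and 10.35 and 10.32 in the same order. The genes below were picked after their values in the fit without the 3 arrays were seen.

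In that fit the smallest p belonged to Gucy2c, the receptor for guanylin and uroguanylin. It stood at 7.0 and 7.13 in lean and 9.93 and 10.18 in db/db islets, with a change of 2.99 and an SE of 0.14 without the 3 arrays and 0.61 with them. Kdelr3, which returns escaped proteins to the endoplasmic reticulum, stood at 6.22 and 6.32 against 8.31 and 8.95. Tnfrsf11b, the decoy receptor osteoprotegerin, stood at 5.19 and 5.07 against 7.04 and 7.27. C1qtnf1, a secreted C1q-like protein, stood at 4.75 and 4.28 against 7.26 and 7.91.

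Aass, Pdyn and Plaur were also among the 95. Aass, the first enzyme of lysine breakdown, stood at 5.01 and 4.32 in lean and 7.82 and 8.09 in db/db islets. The prodynorphin gene Pdyn stood at 8.24 and 7.83 against 10.03 and 10.29. Plaur, the urokinase receptor, stood at 3.57 and 3.69 against 5.59 and 6.67. Among the 30 lower genes, the lysosomal cation channel gene Mcoln3 stood at 6.80 and 7.0 against 5.50 and 5.25, and Stxbp5l, a tomosyn that restrains vesicle fusion, at 6.57 and 6.67 against 5.04 and 4.92. For each of these genes the groups were far apart relative to the gap between the arrays of a group.

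The same genes were then read in 3 other comparisons that share no array with this one. The p-values by which they were picked used the spread within all groups of the 16-array fit. The picking thus favoured genes with little spread there and was not independent of the other comparisons within the larger table. At 16 weeks all 15 higher genes were again higher in db/db islets, 14 without overlap, and 12 were called. Of all genes tested, 32.8% were higher and 10.4% lower without overlap at that age, and 5.32% were called higher and 0.477% lower. The share of all genes tested that kept their sign was 53.0%, and 74.8% among the 3393 genes whose 6-week arrays lay apart and higher. Of these 3393, 48.3% were higher without overlap at 16 weeks too and 14.8% were called. The 605 genes higher at an unadjusted p below 0.05 at 6 weeks are closer to how the 15 were picked. Of the 605, 83.5% kept their sign, 67.9% were higher without overlap at both ages and 29.9% were called. The 16-week comparison holds lean KsJ replicate 2, which stands apart. Without that array the sign was still the same for 15 of 15, against 83.2% of the 3393 and 86.0% of the 605. This leaves 1 lean array, replicate 1, with a high Uty level of 7.86, against 2.29 and 2.61 in 16-week db/db islets. Lean replicate 1 of 6 weeks also had a high Uty level, and the part of this difference was not tested. On the single pair of 16-week arrays of the smaller table the sign was the same for 13 of 15, against 63.8% of the 3393. In 6-week ob/ob islets against lean 6J islets 14 of 15 had the same sign, against 72.3% of the 3393 and 83.0% of the 605. That comparison rests on 2 further arrays that stand apart, of which lean 6J replicate 2 had an enterocyte mean of 10.44 against 3.99 on replicate 1. With only the other array of each group 11 of 15 had the same sign, against 60.6% of the 3393. The ob/ob array kept there, replicate 2, had a near-lean mean for genes used as marks of dedifferentiated or stressed beta cells. That mean was 6.47, beside 6.38 on lean 6J replicate 1, 7.99 on ob/ob replicate 1 and 7.72 and 7.43 in 16-week ob/ob islets. The values with 1 array of each group thus set 2 arrays alike in this list side by side. Their replication genes were alike too, at 5.49 on the ob/ob and 5.48 on the lean array. Of the lower genes, 10 of 15 kept their sign at 16 weeks, 7 without overlap, and of these 15 only Tdrd6 was called, while 38.7% of the 4332 genes that were lower without overlap at 6 weeks kept their sign. Without lean replicate 2 the sign was kept by 11 of 15, against 54.8% of these. On the single pair 9 of 15 lower genes had the same sign, against 44.5% of the 4332. In ob/ob islets 11 of 15 had the same sign, against 73.2%, and 10 of 15 with 1 array of each group, against 65.4%. In that comparison 0 of all genes were called and 955 (6.15%) had an unadjusted p below 0.05. Of the 718 genes lower at an unadjusted p below 0.05 at 6 weeks, 56.7% kept their sign at 16 weeks. At that age 27.2% of the 718 were lower without overlap, as at 6 weeks, and 2.37% were called, and 83.0% had the same sign in ob/ob islets.

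The 4 called genes differed in how far they moved elsewhere. Kcnk9 was dim in lean 6J islets (2.85 and 2.38) and in 6-week ob/ob islets (2.94 and 2.60), and stood at 4.71 and 5.48 in 16-week db/db islets against 2.89 and 2.75 in lean ones. Its change was larger in db/db than in ob/ob islets by 3.47 ± 0.45, which did not pass (adjusted p = 0.143, limma). Meltf was at 5.94 and 5.51 in 16-week db/db islets against 4.83 and 4.49, a change of 1.07, and its 16-week change minus its 6-week change was -1.76 ± 0.46 (adjusted p = 0.361). Star changed by 1.10 at 16 weeks and by 0.69 in 6-week ob/ob islets, and Gm5105 by 1.01 and 0.56.

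Over all genes 0 passed the test of a difference between the db/db and the ob/ob change at 6 weeks, and 349 (2.25%) had an unadjusted p below 0.05. Strain and model cannot be told apart here, and both 6-week ob/ob arrays had a high Uty level whereas neither db/db array did. Between ages, 1 gene (0.00644%) was called and 2032 (13.1%) had an unadjusted p below 0.05. That gene was Sh2d5, an adaptor protein of neurons. At 6 weeks it stood at 6.18 and 5.98 in lean and 5.79 and 5.84 in db/db islets, and at 16 weeks at 5.47 and 5.41 against 7.21 and 6.97. Its change was thus -0.27 at 6 weeks and 1.65 at 16 weeks, a difference of 1.92 ± 0.21 (adjusted p = 0.0324, limma).

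**Figure D3:**
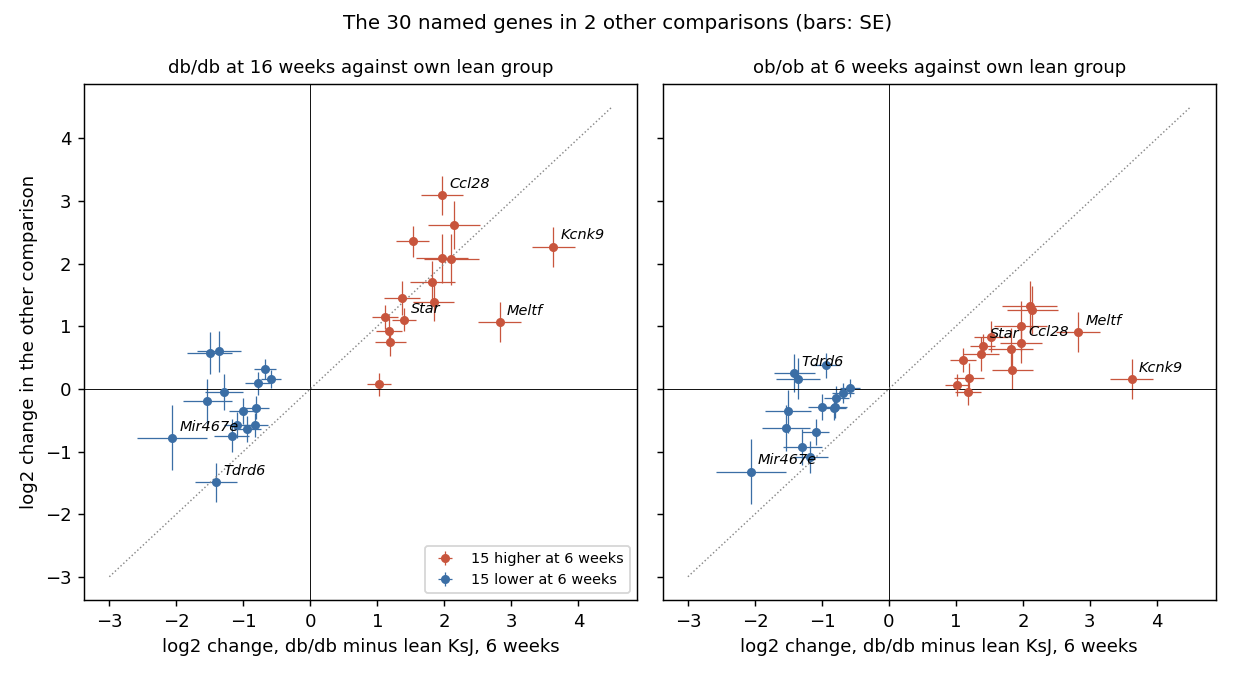
Log2 change at 6 weeks in db/db islets (horizontal) against the change of the same 30 genes in db/db islets at 16 weeks (left) and in ob/ob islets at 6 weeks (right), each against its own lean group, with SE bars and a dotted line of equal change. All 15 higher genes lie above 0 at 16 weeks, and Kcnk9 lies at 0.16 in ob/ob islets.

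Gene lists are described by their shares of members without overlap, to be read against 21.9% higher, 27.9% lower and a median change of -0.02 over all genes tested. The beta-cell transcription factor genes mostly stood slightly lower in db/db islets. Of 22 tested, 0 were called, 12 (54.5%) were lower on both db/db arrays and 3 (13.6%) higher, with a median change of -0.18, against 27.9% and 21.9% of all genes. Nkx6-1, which keeps beta cells distinct from other endocrine cells, stood at 10.80 and 10.71 in lean and 10.51 and 10.19 in db/db islets. The factor Foxa2 stood at 8.94 and 8.89 against 8.60 and 8.58, and Mlxipl, the glucose-responsive factor ChREBP, at 9.87 and 10.20 against 9.20 and 9.71. Mafa, an activator of the insulin gene, stood at 10.05 and 10.07 against 9.95 and 9.47, and Pdx1 overlapped, at 9.58 and 9.27 against 9.41 and 9.08. Hopx, a small homeodomain protein, was the exception with the largest positive value, at 4.82 and 5.04 against 5.64 and 5.66 (0.72 ± 0.25).

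Genes of glucose sensing and stimulus-secretion coupling leaned the same way. Of 26 tested, 0 were called, 17 (65.4%) were lower on both db/db arrays and 2 (7.69%) higher, with a median of -0.29, against the same 27.9% and 21.9%. Cox6a2, a cytochrome oxidase subunit typical of muscle and beta cells, stood at 10.65 and 10.59 in lean and 9.29 and 8.96 in db/db islets (-1.50 ± 0.47). Gad1, which makes GABA, stood at 6.16 and 6.74 against 5.33 and 5.26. Slc2a2, the beta-cell glucose transporter, stood at 12.69 and 12.80 against 12.51 and 11.88, and the calcium channel gene Cacna1d at 8.13 and 8.06 against 7.83 and 7.01. In both of these db/db replicate 2 was the lower array. Ucn3, a mark of mature beta cells, stood at 11.36 and 11.43 against 11.31 and 11.22, and Iapp, cosecreted with insulin, at 12.56 and 12.45 against 12.60 and 12.66. Ins2 overlapped between groups, with a change of 0.01 ± 0.16 whose sign turned in 3 alternative settings.

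Secretory granule and prohormone processing genes leaned upwards instead. Of 23 tested, 0 were called, 14 (60.9%) were higher on both db/db arrays and 2 (8.70%) lower, with a median of 0.15, against 21.9% and 27.9% of all genes. Vgf, a granule protein and source of peptides, stood at 6.39 and 6.37 in lean and 8.44 and 9.5 in db/db islets (2.59 ± 0.69, adjusted p = 0.496, limma). The granule membrane protein gene Ptprn stood at 11.92 and 11.89 against 12.33 and 12.46, and the monoamine transporter gene Slc18a1 at 7.52 and 7.39 against 7.70 and 8.29. The SNARE gene Stx1a was lower, at 6.82 and 6.69 against 5.53 and 6.29.

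In alpha-cell genes 0 of 11 were called, 5 (45.5%) were lower and 3 (27.3%) higher without overlap, against 27.9% and 21.9% of all genes, and the median was -0.24. Slc7a2, an arginine transporter, stood at 10.09 and 10.16 in lean and 9.29 and 9.27 in db/db islets, and the factor Pou3f4 at 4.64 and 4.89 against 3.98 and 3.73. The protease gene Dpp4 (8.33 and 8.33 against 8.89 and 8.75) and Ttr, which encodes transthyretin (12.80 and 12.72 against 12.99 and 13.23), stood on the other side. Gcg itself overlapped, with a change of -0.03. In delta, PP and epsilon-cell genes 0 of 12 were called, with 2 higher, 3 lower and a median of 0.01. There the delta-cell factor Hhex stood at 5.95 and 6.05 against 5.49 and 5.42, while Sst changed by 0.09 and the pancreatic polypeptide gene Ppy by -0.12.

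Genes used as marks of dedifferentiated or stressed beta cells had the highest median of the lists, 1.14 over 13 genes. None was called, 8 (61.5%) were higher on both db/db arrays and 0 lower, against 21.9% and 27.9% of all genes. Aldh1a3, a retinaldehyde dehydrogenase, stood at 5.82 and 5.38 in lean and 8.46 and 9.0 in db/db islets, and its SE of 1.13 over all arrays was large beside the gap between these 4. Serpina7, which encodes thyroxine-binding globulin, stood at 6.35 and 5.76 against 7.97 and 9.30, and the hyaluronan receptor gene Cd44 at 6.34 and 6.41 against 8.15 and 8.27. With Gucy2c these were the 4 of the list called without the 3 arrays named above, in a fit that called 0.805% of all genes. The gut peptide gene Cck stood at 4.23 and 3.93 against 6.11 and 8.29, and the gastrin gene Gast at 5.46 and 4.67 beside 6.12 and 6.30. Csn3, a milk casein gene, was below the cutoff in lean islets (2.26 and 1.99) and at 4.13 and 7.12 in db/db islets, so no fold is given. The db/db values of Csn3 entered the mean by which it passed the filter. Enterocyte genes also had higher means on both db/db arrays (4.89 and 4.26 against 3.94 and 4.03). The list averaged 6.38 and 6.10 in lean and 7.39 and 8.02 in db/db islets. Both means were thus higher in db/db islets, while within each group, of 2 arrays only, their order was opposite. The part of enterocyte genes in this list was not tested. The progenitor factor Neurog3 had a change of -0.25, with overlapping groups. This list was drawn up with the 16-week results known, where its median was 2.63, or 2.34 without lean replicate 2 of that age.

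Chaperone and unfolded protein response genes leaned upwards in db/db islets. Of 42 tested, 0 were called, 23 (54.8%) were higher on both db/db arrays, 3 (7.14%) were lower, against 21.9% and 27.9% of all genes, and the median was 0.22. The response is run in part by the factor ATF6, which with NF-Y binds the ER stress response element (ERSE), a CCAAT box, any 9 bases and then CCACG. The motif was searched on both strands of the 250 bases before each gene's start in RefSeq promoters (GRCm38.p6). It was found in 9 of 32 genes of the list with an entry (28.1%), against 0.157% of 12135 genes tested with an entry. Of the 9, 6 were higher on both db/db arrays with a median of 0.40, and of the 23 without the motif 13, with a median of 0.20. A match describes letters, not binding. The promoters below belong to the largest changes among the 9 and to Hspa5, the main chaperone of the response, and the ERSE is in capitals. It reads on the reverse strand in Creld2 (chr15:88819396-88819645, plus strand, bases -126 to -108) and Derl3 (chr10:75893148-75893397, plus strand, -156 to -138) and on the gene's strand in Hspa5 (chr2:34771840-34772089, plus strand, -65 to -47).
Creld2: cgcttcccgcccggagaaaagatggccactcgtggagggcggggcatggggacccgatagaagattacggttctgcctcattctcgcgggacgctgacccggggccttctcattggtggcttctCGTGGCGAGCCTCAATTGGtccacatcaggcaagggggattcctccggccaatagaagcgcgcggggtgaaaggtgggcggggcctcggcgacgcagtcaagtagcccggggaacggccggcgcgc
Derl3: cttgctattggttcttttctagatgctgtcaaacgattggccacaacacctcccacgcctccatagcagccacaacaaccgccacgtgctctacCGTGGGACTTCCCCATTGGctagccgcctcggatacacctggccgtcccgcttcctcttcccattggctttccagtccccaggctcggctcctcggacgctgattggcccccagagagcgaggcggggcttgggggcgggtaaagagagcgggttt
Hspa5: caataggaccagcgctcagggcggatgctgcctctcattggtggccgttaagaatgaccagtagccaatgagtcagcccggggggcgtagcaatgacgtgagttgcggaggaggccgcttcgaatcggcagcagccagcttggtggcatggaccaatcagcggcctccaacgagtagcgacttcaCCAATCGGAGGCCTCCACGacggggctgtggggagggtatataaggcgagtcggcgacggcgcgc
Derl3, part of the channel that removes misfolded proteins, stood at 8.17 and 7.85 in lean and 9.60 and 10.11 in db/db islets (1.85 ± 0.67, adjusted p = 0.539, limma). Creld2, an ER protein with disulfide isomerase activity, stood at 10.39 and 10.01 against 11.45 and 11.66. The cochaperone gene Sdf2l1 stood at 10.49 and 9.997 against 10.96 and 11.45, and Fkbp11, a prolyl isomerase of secretory cells picked after its values were seen, at 9.76 and 9.44 against 10.77 and 11.28. Hspa5 itself overlapped, at 10.19 and 10.43 against 10.39 and 10.60 (0.19 ± 0.25). Acinar cells also express these genes strongly. The list averaged 9.88 and 9.71 in lean and 9.9985 and 10.27 in db/db islets, and the acinar genes 10.002 and 8.47 against 7.80 and 9.39. Within each group, of 2 arrays only, the array with the higher acinar mean thus had the higher list mean and the higher values of Derl3 and Sdf2l1. Hspa5 was lower on that array in lean islets, at 10.19 against 10.43. Between groups the acinar median was -0.72 and that of the list 0.22. The acinar part in the result was not tested. Derl3, Creld2 and Fkbp11 were called without the 3 arrays, in the fit that called 0.805% of all genes.

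The integrated stress response, which ATF4 runs when translation is restrained, had a share of higher members near that of all genes. Of 28 genes tested 0 were called, 8 (28.6%) were higher and 3 (10.7%) lower, against 21.9% and 27.9% of all genes, and the median was 0.09. Chac1, which degrades glutathione, stood at 7.43 and 7.10 in lean and 7.90 and 8.18 in db/db islets, and the serine synthesis gene Psat1 at 5.19 and 5.10 against 6.11 and 6.30. Ddit3, which encodes the proapoptotic factor CHOP, overlapped at 7.06 and 7.23 against 6.91 and 7.67, and its change of 0.15 turned to -0.23 without db/db replicate 2. Of 16 genes of the Bcl2 family 0 were called, with 4 (25.0%) higher, 4 (25.0%) lower and a median of 0.00, near the shares of all genes. Bcl2l11, the proapoptotic protein BIM, stood at 5.77 and 5.91 against 5.02 and 5.01.

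Genes of DNA replication and of mitosis were higher in db/db islets on most counts without any call. Of 26 replication and S-phase genes 20 (76.9%) were higher on both db/db arrays and 2 (7.69%) lower, against 21.9% and 27.9% of all genes, with a median of 0.44. Mcm2, of the helicase that licenses origins, stood at 6.66 and 6.62 in lean and 7.52 and 7.58 in db/db islets. Ccne1, cyclin E1, stood at 4.69 and 4.85 against 5.82 and 5.47, and the thymidine kinase gene Tk1 at 4.45 and 4.51 against 5.30 and 5.31. Of 25 mitosis genes 17 (68.0%) were higher, 0 lower, and the median was 0.52. Tpx2, a spindle assembly factor, stood at 5.71 and 5.85 against 6.53 and 6.67, and the proliferation marker gene Mki67 at 6.29 and 6.63 against 7.48 and 6.96.

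In 16-week db/db islets the medians of these lists were 0.18 and -0.20, beside 0.18 over all genes tested. Without lean replicate 2 of that age they were 0.02 and -0.29. At 16 weeks 9 of the 26 replication genes and 0 of the 25 mitosis genes were higher without overlap, against 32.8% of all genes. The replication share was thus near that of all genes. Mitosis genes averaged 5.17 and 5.39 in lean and 5.68 and 5.75 in db/db islets, beside lymphocyte means of 3.71 and 5.15 against 5.57 and 4.19. The part of lymphocytes in these values was not tested. Of 19 genes of G1 control 0 were called, 7 (36.8%) were higher and 5 (26.3%) lower, with a median of 0.02. There cyclin D2, Ccnd2, the main D cyclin of beta cells, stood at 11.77 and 11.66 against 11.31 and 11.13, while the inhibitor genes Cdkn1a (8.45 and 8.47 against 9.06 and 9.16) and Cdkn2a (4.38 and 4.25 against 4.82 and 4.80) stood higher.

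**Figure D4:**
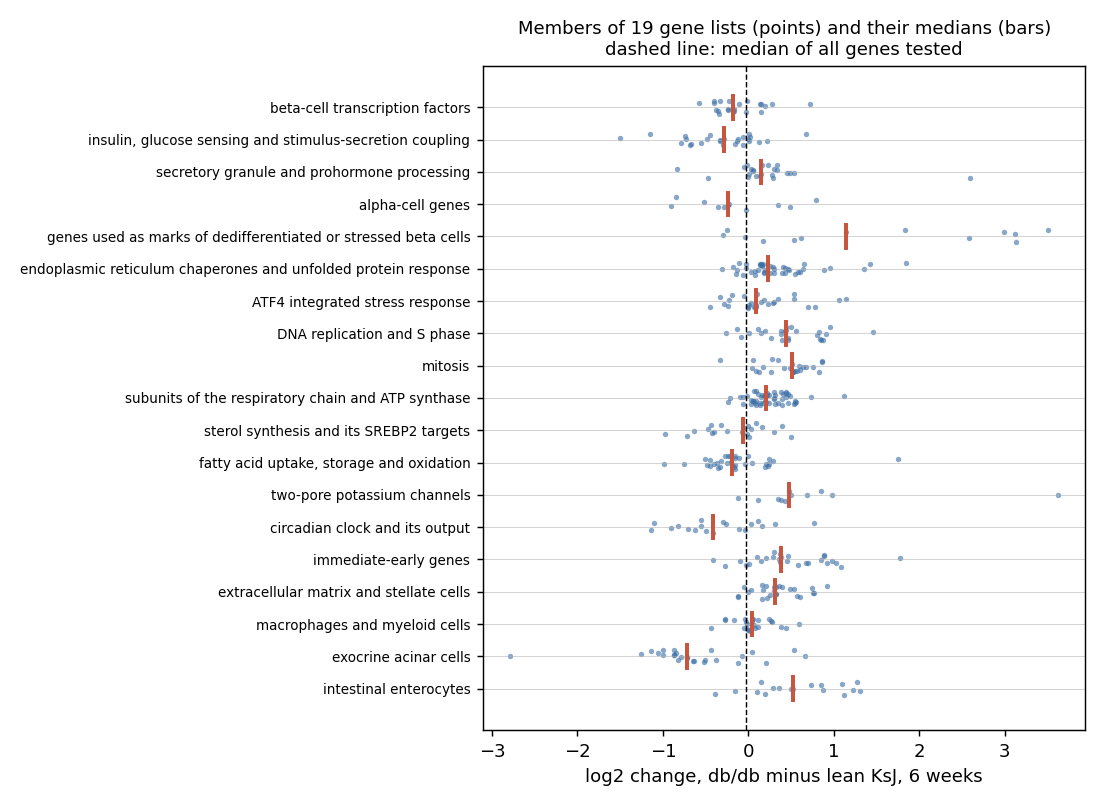
Log2 change of db/db against lean KsJ islets at 6 weeks (horizontal) for each tested member (points) of 19 gene lists, with the list median as a bar and the median of all genes tested (-0.02) as a dashed line. The replication, mitosis and dedifferentiation lists have medians of 0.44, 0.52 and 1.14, and the clock list lies at -0.41.

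Subunits of the respiratory chain and ATP synthase were higher on both db/db arrays in 25 of 52 genes (48.1%) and lower in 3 (5.77%), against 21.9% and 27.9% of all genes, with a median of 0.21 and 0 called. Ndufa1, of complex I, stood at 8.63 and 8.33 in lean and 9.03 and 10.15 in db/db islets, and Uqcrq, of complex III, at 4.5 and 4.46 against 5.05 and 5.37. The list averaged 8.02 and 8.36 on the db/db arrays against 7.98 and 7.90, so the upward lean rested more on db/db replicate 2. Of 29 glycolysis and hypoxia genes 0 were called, 7 (24.1%) were higher and 11 (37.9%) lower, against 21.9% and 27.9% of all genes, and the median was 0.02. Aldoc, an aldolase, stood at 7.37 and 7.43 against 6.60 and 6.54, and Pgk1 at 9.23 and 8.97 against 9.65 and 9.66. Of 13 genes listed for ChREBP and its glucose-responsive targets 0 were called, with 3 higher, 3 lower and a median of -0.04. The list counts Mlxipl, Mlx and Mlxip beside the targets. Their best-known member Txnip overlapped, at 10.13 and 10.85 against 10.69 and 10.99, whereas at 16 weeks the median of the list was 0.73, or 0.58 without lean replicate 2 of that age.

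Genes of fatty acid use leaned downwards. Of 33 genes of fatty acid uptake, storage and oxidation 0 were called, 15 (45.5%) were lower on both db/db arrays and 5 (15.2%) higher, against 27.9% and 21.9% of all genes, with a median of -0.19. Hadh, an oxidation enzyme that also restrains insulin release, stood at 12.39 and 12.33 in lean and 12.02 and 11.74 in db/db islets. The carrier gene Fabp5 was 1 of the 5 higher, at 3.82 and 4.20 against 4.91 and 6.61. Of 22 fatty acid synthesis genes 0 were called, 8 (36.4%) were lower and 4 (18.2%) higher, nearer to the shares of all genes, with a median of -0.07, and the median was 0.06 without db/db replicate 1. Acaca, the acetyl-CoA carboxylase of this pathway, stood at 6.75 and 7.11 against 6.41 and 5.66. Of 20 sterol genes 0 were called, 8 (40.0%) were lower and 4 (20%) higher, with a median of -0.06 that was 0.14 without db/db replicate 1. Srebf2, which drives sterol synthesis, stood at 8.67 and 8.70 against 7.89 and 8.05, and Stard4, a cytosolic sterol carrier, at 6.24 and 6.23 against 5.23 and 5.29. The synthesis enzyme gene Dhcr7 stood at 7.40 and 7.15 against 7.43 and 7.90.

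Star was the only called member of 18 genes of cholesterol transfer and steroid synthesis, of which 5 (27.8%) were higher without overlap and 4 (22.2%) lower, near the 21.9% and 27.9% of all genes, with a median of -0.08. Cyp17a1, which makes androgen precursors, stood at 3.05 and 3.69 in lean and 4.18 and 6.12 in db/db islets, and Scarb1, the HDL receptor, at 7.94 and 8.02 against 8.59 and 8.76. Cyp11a1, the side-chain cleavage enzyme that uses the cholesterol Star delivers, overlapped, with a change of -0.09. The related carrier gene Stard4 had a change of -0.97.

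Kcnk9 was the only called member of 11 two-pore potassium channel genes. The others were nonetheless often higher without overlap, which made 7 (63.6%) higher and 0 lower with a median of 0.47, against 21.9% and 27.9% of all genes. Kcnk1 stood at 8.53 and 8.53 in lean and 9.27 and 9.74 in db/db islets, Kcnk13 at 3.86 and 3.67 against 4.68 and 4.55, and the mechanosensitive channel gene Kcnk2 at 3.39 and 3.81 against 3.89 and 4.17. Kcnk16, the islet channel TALK-1, overlapped with a change of 0.11. Of 23 other potassium channel genes 0 were called, 4 (17.4%) were higher and 6 (26.1%) lower, with a median of -0.13. Kcnn4, activated by calcium, stood at 4.77 and 5.35 against 6.45 and 6.26, and Kcng3, a modifier of Kv2 channels, at 7.15 and 7.46 against 6.26 and 5.56.

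Meltf was the only called member of 21 iron genes, with 6 (28.6%) higher and 5 (23.8%) lower without overlap, near the 21.9% and 27.9% of all genes, and a median of -0.03. The transferrin receptor gene Tfrc stood at 7.79 and 8.08 in lean and 6.91 and 7.23 in db/db islets, and Aco1, which encodes the iron sensor IRP1, at 8.05 and 8.13 against 7.62 and 7.34. Of 34 redox genes 0 were called, 8 (23.5%) were higher and 9 (26.5%) lower, near the shares of all genes, and the median was -0.01. Sod3, the extracellular superoxide dismutase, stood at 5.15 and 5.28 against 7.13 and 7.79 (2.24 ± 0.46, adjusted p = 0.309, limma), and Osgin1, an oxidative stress-induced gene, at 6.72 and 6.52 against 7.57 and 8.03. Sod1 stood at 10.46 and 10.61 against 10.88 and 11.08.

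Circadian clock and output genes had the lowest median of the endocrine and metabolic lists, -0.41 over 19 genes. None was called, 10 (52.6%) were lower on both db/db arrays and 1 (5.26%) higher, against 27.9% and 21.9% of all genes. In the clock CLOCK and BMAL1 (Arntl) activate genes through E-boxes, CACGTG, and PER and CRY proteins hold them back. An E-box was found in the 250 bases before the start of 5 of 18 clock genes with an entry (27.8%), against 9.22% of genes tested. It can overlap the CCACG of the ERSE. The promoter of Ciart, a clock repressor and the member with the smallest p, is shown because it held 3 E-boxes (capitals; chr3:95882229-95882478, minus strand, bases -116 to -111, -58 to -53 and -44 to -39).
Ciart: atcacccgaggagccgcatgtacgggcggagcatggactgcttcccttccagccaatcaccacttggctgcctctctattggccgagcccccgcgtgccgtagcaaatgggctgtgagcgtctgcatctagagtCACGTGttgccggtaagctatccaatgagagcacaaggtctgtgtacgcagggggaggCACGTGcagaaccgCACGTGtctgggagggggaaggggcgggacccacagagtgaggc
Ciart stood at 5.38 and 6.23 in lean and 4.55 and 4.86 in db/db islets (-1.10 ± 0.33, adjusted p = 0.516, limma). The output factor gene Dbp stood at 9.23 and 9.58 against 8.24 and 8.29, Per3 at 6.2 and 6.81 against 5.71 and 5.50, and the repressor gene Nr1d2 at 8.66 and 8.83 against 8.23 and 7.99. Nfil3, which opposes DBP at its sites, was the 1 higher gene, at 6.43 and 6.59 against 7.25 and 7.30. Arntl overlapped, at 7.62 and 6.69 against 7.43 and 7.19. At 16 weeks the median of the list was 0.34, but 0.07 without lean replicate 2 of that age. In 6-week ob/ob islets it was -0.21, or -0.08 with 1 array of each group, where the ob/ob array was the near-lean one described above. The labels give no time of day at which islets were taken, so time and group cannot be told apart.

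Immediate-early genes, which rise within minutes of stimulation or of tissue handling, separated single arrays rather than groups. Of 27 tested 0 were called, 7 (25.9%) were higher and 0 lower without overlap, against 21.9% and 27.9% of all genes, and the median was 0.38. Fos stood at 6.43 and 11.05 in lean and 8.65 and 11.02 in db/db islets. The list averaged 5.999 on lean replicate 1 against 7.45 on lean replicate 2 and 6.90 and 7.51 in db/db islets, and its median was -0.43 without lean replicate 1 and -0.03 without db/db replicate 2. Dusp5, a phosphatase of ERK, had the smallest p, at 6.95 and 6.91 against 7.61 and 8.32. Nr4a1 stood at 7.88 and 8.46 against 10.90 and 9.0, and Nr4a2 at 7.14 and 6.66 against 7.63 and 7.93.

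**Figure D5:**
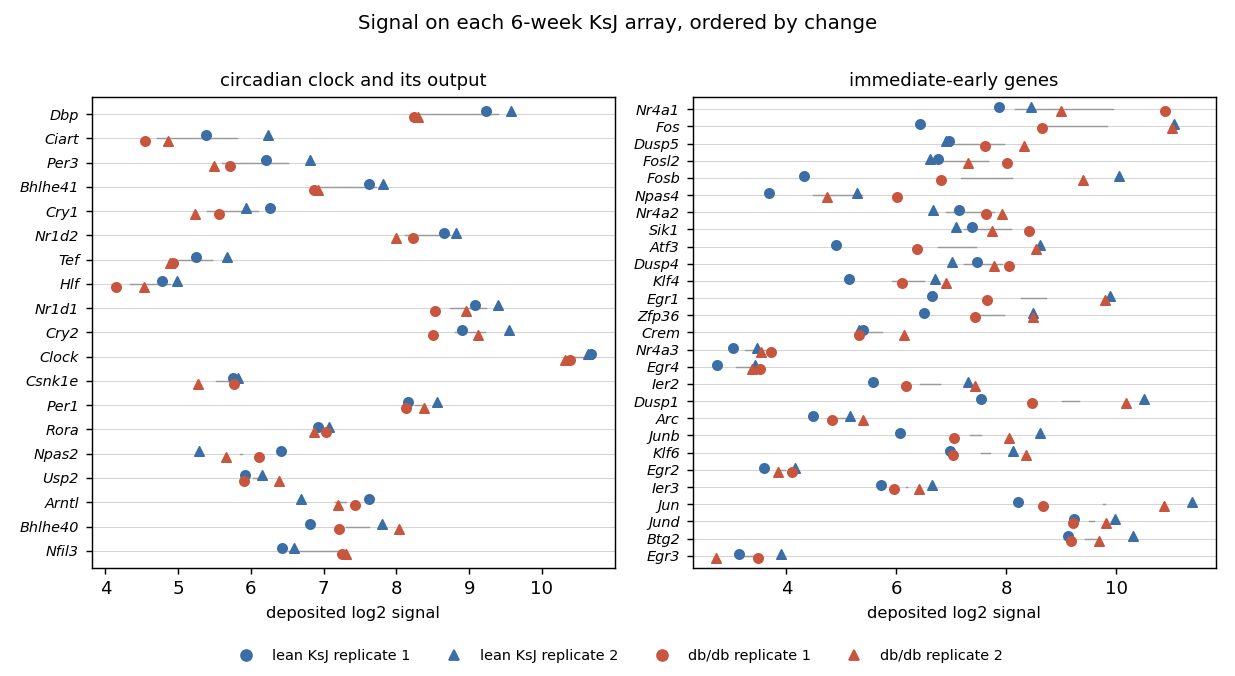
Deposited log2 signal (horizontal) of the tested clock genes (left) and immediate-early genes (right) on the 4 arrays, ordered by change, with lean KsJ in blue, db/db in red, circles for replicate 1 and triangles for replicate 2, and grey lines between group means. The top clock genes have both red symbols to the left of both blue ones, whereas for Fos both replicates 2 lie at 11.05 and 11.02.

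Genes of leptin and cytokine receptor signalling leaned downwards. Of 22 tested 0 were called, 12 (54.5%) were lower on both db/db arrays and 0 higher, against 27.9% and 21.9% of all genes, with a median of -0.21. The LIF receptor gene Lifr stood at 9.75 and 9.62 in lean and 9.26 and 8.71 in db/db islets, its partner Il6st at 9.59 and 9.47 against 9.26 and 8.78, and Stat5a at 6.22 and 6.18 against 5.94 and 5.37. Socs3, a feedback inhibitor that leptin induces, overlapped at 4.75 and 5.90 against 5.88 and 6.30. Of 25 insulin and IGF signalling genes 0 were called, 11 (44.0%) were lower and 4 (16.0%) higher, with a median of -0.14. The IGF-binding protein gene Igfbp3 stood at 8.34 and 8.20 against 8.95 and 9.30, and Tsc1, a brake on mTORC1, at 7.45 and 7.29 against 7.20 and 6.18.

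Markers of other cells in the islet had small changes. Of 19 endothelial genes 0 were called, 10 (52.6%) were higher on both db/db arrays and 0 lower, against 21.9% and 27.9% of all genes, with a median of 0.14. Cdh5, the endothelial cadherin, stood at 8.60 and 8.41 in lean and 9.03 and 9.13 in db/db islets, and Plvap, of fenestrated vessels, at 9.48 and 9.27 against 9.84 and 9.87. Of 26 matrix and stellate cell genes 0 were called, 12 (46.2%) were higher and 0 lower, with a median of 0.31. Mgp, an inhibitor of calcification, stood at 8.17 and 8.24 against 8.82 and 9.13 (0.77 ± 0.19, adjusted p = 0.458, limma), while the fibril collagen genes Col1a1 and Col3a1 overlapped, with changes of 0.17 and 0.16. Of 24 macrophage genes 0 were called, 3 (12.5%) were higher and 1 (4.17%) lower, with a median of 0.04. The complement gene C1qa stood at 7.99 and 7.59 against 8.24 and 8.53, and Adgre1, the F4/80 antigen, overlapped at 5.66 and 4.91 against 5.09 and 4.62.

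Lymphocyte genes had a median of 0.46 over 15 genes, but 1 was higher and 1 lower without overlap, 0 were called, and the median was -0.32 without lean replicate 1, -0.25 without db/db replicate 1 and -0.02 with a term for Xist. Of the 15, 14 had a change above 0. The B-cell gene Cd79a was the 1 below, at 5.01 and 5.54 in lean and 4.52 and 3.13 in db/db islets. Ighm was among the 14, with overlapping groups, at 6.03 and 8.76 against 8.69 and 10.33. Of 26 acinar genes 0 were called and 1 was higher and 1 lower without overlap, although the median was -0.72, which turned to 0.08 without lean replicate 1 and 0.10 without db/db replicate 1. Cpa1, carboxypeptidase A1, stood at 12.92 and 11.89 against 11.14 and 12.23, in the order of the acinar means. Of 6 Reg genes, made by exocrine and regenerating tissue, none lay apart, with means of 7.44 and 5.6 against 5.25 and 7.86. Of 17 ductal genes 0 were called, 4 (23.5%) were higher and 2 (11.8%) lower, against 21.9% and 27.9% of all genes, with a median of 0.10 and Krt7 at 7.98 and 7.78 against 8.38 and 8.57. Of 17 enterocyte genes 0 were called, 9 (52.9%) were higher and 1 lower, with a median of 0.52 that turned to -0.50 with a term for Xist. The peptidase gene Anpep stood at 8.55 and 8.18 against 9.05 and 9.91, but the fatty acid binding protein gene Fabp2 at 3.0 and 3.14 against 5.45 and 3.24, high on db/db replicate 1 alone.

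Of 24 genes normally kept low in beta cells 0 were called, 6 (25.0%) were higher without overlap and 3 (12.5%) lower, against 21.9% and 27.9% of all genes, with a median of 0.19 that turned to -0.09 with a term for Xist. Igfbp4 stood at 5.59 and 6.36 in lean and 7.21 and 6.51 in db/db islets. Of 11 serotonin genes 0 were called, with 4 higher, 3 lower and a median of 0.23, and the monoamine oxidase gene Maob stood at 10.85 and 10.58 against 10.48 and 9.77. Of 25 chemokine and inflammation genes 0 were called, with 4 (16.0%) higher, 3 (12%) lower and a median of 0.16 that turned to -0.08 without lean replicate 1 and -0.10 without db/db replicate 1. There Lcn2, an iron-scavenging acute-phase protein, stood at 4.84 and 5.70 against 6.44 and 7.17. Of 26 interferon-response genes 0 were called, 3 (11.5%) were higher and 8 (30.8%) lower, with a median of -0.02, and Stat2 stood at 6.68 and 6.81 against 5.66 and 6.01. Among the goblet and Paneth, neural and Schwann, and adipocyte lists 0 of 9, 0 of 7 and 0 of 4 tested genes were called, with medians of -0.15, 0.07 and 0.02. The first turned to 0.02 without lean replicate 1, 0.04 without lean replicate 2 and 0.27 without db/db replicate 2.

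No member of any list other than Kcnk9, Meltf and Star was called in the 16-array fit. Calls without the 3 arrays were not particular to the dedifferentiation and unfolded protein response lists. Cox6a2, Vgf, Slc7a2, Mcm2, Stard4, Sod3 and Osgin1, members of other lists, were called there too. Adiponectin, Adipoq, and the Schwann cell factor Sox10 were too dim to test. Their signals were 1.90 to 2.29 and 2.28 to 3.24 on the 4 arrays.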

How the data were processed

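The deposited values of the larger table, 16 arrays in 8 groups of 2, were log2 signals of transcript clusters. MAS5, RMA and Partek appear in the submitters' processing notes with neither version nor role, and how background was corrected is not given in the sources used here. Of 41034 clusters 23521 had 1 gene in the platform annotation, 1814 had several and 15699 had no row, and the last 2 kinds were not used. Entrez IDs linked 23328 clusters to current symbols of the GRCm38.p6 gene table. For genes with several clusters the brightest was kept, and genes with a mean below the 30th percentile (log2 2.99) were left out. In R 4.3.3, limma 3.58.1 estimated a mean for each group, with 8 residual degrees of freedom and eBayes moderation, and p-values were two-sided and Benjamini-Hochberg adjusted. The number of arrays limits the precision, and an exact permutation of 2 against 2 arrays cannot go below p = 0.333. The fit was tested on simulated data. The 2 arrays of the smaller table were used for side-by-side values with no test.

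Named genes were those called, the 15 higher and 15 lower with the smallest p and no overlap between groups, up to 4 per list by p, genes called in a difference between changes, and fixed islet genes. Others are named as picked after their values were seen or belong to a described role. The lists and members were chosen with earlier results of these data known and were described by counts and medians beside all genes, with no test. Of their members 863 were tested and 62 were too dim, and those with no cluster of their own were not analysed here. Alternatives were other filters, scalings, variance models and sets of arrays, and those chosen after seeing the data left out the 5 arrays with a high Uty level or, in the other comparisons, the 3 arrays that stand apart. Python 3.11.15 with matplotlib 3.10.9 drew the figures.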

Additional observations from a re-analysis of the deposited data

Results flagged for a closer look

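Sh2d5 was the single gene whose db/db change differed between ages by the test of the difference, at 1.92 on the log2 scale (adjusted p = 0.0324, limma). Both db/db arrays lay below both lean arrays at 6 weeks and above them at 16 weeks. The call was absent when any of the 4 arrays of 6 weeks was left out.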

How the results depend on the processing

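Against 4 genes called, the alternatives gave 1 (dim genes filtered at the 50th percentile), 2 after quantile normalization, 2 after median centring, 2 with an eBayes trend and robust fit, 0 with unmoderated variances, 28 with array weights, 1 with only the 8 arrays of 6 weeks, 2 with only the 8 KsJ arrays, 125 without the 3 arrays outside the groups that stand apart, and 18 without the 5 arrays with a high Uty level. Leaving out each array of the groups in turn gave 0 to 4, with 2 without lean replicate 1, 1 without lean replicate 2 and 0 without db/db replicate 2. The other settings gave 4 or 5. Of the 4 genes, 3 were shared with a term for Xist, 2 with only the 4 compared arrays and 2 without db/db replicate 1. The difference between db/db and ob/ob changes called 0 genes in all settings except without the 3 arrays, where it called 1. The difference between ages called 1 gene, but 0 with no filter, quantile normalization, median centring, the eBayes trend and robust fit, array weights, only KsJ arrays or any array of 6 weeks left out (0 to 0). It called 4 without the 3 arrays, 2 with the Xist term and 1943 without the high-Uty arrays. The causes were not tested.

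Among the genes recomputed in each setting, signs turned for the following. Lepr was at 0.0368 with the Xist term, 0.0085 without the high-Uty arrays and between -0.349 and 0.0945 with 1 of the 4 arrays left out. Ins2 was at -0.0347 after median centring and between -0.0761 and 0.105 with an array left out, and Gcg was at 0 after quantile normalization. Txnip was at -0.0081 without the high-Uty arrays. With an array left out Txnip lay between -0.008 and 0.707, Ddit3 between -0.231 and 0.527 and Arntl between -0.312 and 0.626. Of 756 list medians in other settings 60 moved by more than the spread between replicates. None changed sign for the beta-cell (-0.28 to -0.03 and -0.34 to -0.17), granule, dedifferentiation, unfolded protein response (0.12 to 0.30), replication, mitosis (0.34 to 0.52), respiratory chain (0.09 to 0.39), fatty acid use, two-pore channel, clock (-0.54 to -0.30), cytokine receptor, matrix or endothelial lists. The medians of the delta-cell, G1, glycolysis, ChREBP, steroid, iron, redox, Bcl2, interferon, macrophage, ductal, nerve and adipocyte lists, all within 0.10 of 0, changed sign in at least 1 setting. The further list values without the 3 arrays were chosen after seeing the data. No paired analysis was possible because the labels number the samples through the series and give the groups no shared replicate numbers.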
